A study of Mus musculus with 5 samples.

Results

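Lrp2, Amn and Dab2 are the genes of the megalin endocytic receptor and of proteins that work with it, and they were followed over the arrays of a mouse differentiation study. The members were all probes whose gene symbol was Lrp2, Amn or Dab2, which gave 3 probes for 3 genes, 1 probe each, of 26423 probes in all and of 20377 probes named for 17742 genes. The study measured total RNA of the embryonic stem cell (ESC) line 46C and of cells differentiated from it towards heart muscle, on single-colour arrays labelled with Cy5. There were 5 groups with 1 array each: control ESCs at day 0, control mesoderm cells at day 4, mesoderm cells at day 4 from ESCs with a knockdown of Linc1405, control cardiomyocytes at day 10, and cardiomyocytes at day 10 from the Linc1405 knockdown ESCs. Linc1405 is a long non-coding RNA, and the series title places it in a complex with Eomes, a T-box factor of the primitive streak. ESCs grew with fetal bovine serum and LIF on feeder cells, which were removed before harvest. Mesoderm cells grew in serum-free medium with Bmp4, Activin A and VEGF, and cardiomyocytes with bFGF, VEGF and FGF10. The labels give the knockdown samples the code 1405KIpA. How the knockdown was made and how many clones it covered are not given in the sources used here.

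Megalin, the product of Lrp2, is a very large receptor of the LDL receptor family on the apical face of absorptive epithelia such as kidney proximal tubule, visceral endoderm of the yolk sac and neural epithelium. It takes up carrier proteins with their vitamins, lipoproteins and some morphogens, and it works together with cubilin, a receptor with no membrane span of its own that is held in the membrane by amnionless, the product of Amn. Dab2 is a clathrin adaptor that binds the cytoplasmic tail of megalin and other receptors, and it is also made in cells without megalin, among them macrophages, endoderm and mesenchyme.

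Levels are given as quantile-normalised intensities, on a linear or a log2 scale as stated. Since every group has a single array, the spread between cultures is unknown and no test was possible. Each difference therefore describes a pair of arrays, whose small number limits its precision. As a measure of probe error only, a between-probe SD was taken from genes with 2 probes. It was 0.19 on the log2 scale for knockdown against control at day 4 and 0.26 at day 10, and 0.57 to 0.76 for the comparisons between days. The levels come from bulk RNA, in which fewer cells of a type and less RNA per cell cannot be told apart. A gene passed the intensity filter in a comparison where its brighter array reached a log2 level of 10.04, the median of all named genes over the 5 arrays. A gene whose dimmer array lay under that level thus passed only through the array where it was high. The shares of all genes given beside the counts come from the same filter.

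The labelled stages carried their markers in part. Zfp42, a pluripotency gene, was at a log2 level of 15.04 in ESCs and from 7.49 to 8.58 on the other arrays, whereas Pou5f1, the gene of the pluripotency factor Oct4, stayed between 10.91 and 12.20 on all 5 arrays. T, the gene of brachyury in the primitive streak, stood at 14.92 (control) and 13.98 (knockdown) on the day 4 arrays, above its ESC level of 10.62. Of 13 measured heart muscle markers, 12 were at least 2-fold higher in control day 10 than in control day 4 cells, beside 19.2% of all genes past the filter. No named probe could be assigned to Linc1405, so the level of the knocked-down RNA is not analysed here.

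The regulatory sequence just before each gene's start is shown because the 3 genes took different courses over the arrays. RefSeq promoter sequence of the build GRCm38.p6 matched all 3 genes, with 1 start each for Lrp2 and Amn and 2 starts for Dab2, and the 250 bases before each start are printed 5′ to 3′ on the strand of the gene. Capitals mark a match on either strand to any of 5 sets of letters. The first was GATAA, which GATA factors bind. The TATA box was searched as TATAAA and the GC box as GGGCGG. The palindrome of HNF1 and the HNF4 letters CAAAGTCCA were the others.
Lrp2, chr2:69586030-69586279, minus strand: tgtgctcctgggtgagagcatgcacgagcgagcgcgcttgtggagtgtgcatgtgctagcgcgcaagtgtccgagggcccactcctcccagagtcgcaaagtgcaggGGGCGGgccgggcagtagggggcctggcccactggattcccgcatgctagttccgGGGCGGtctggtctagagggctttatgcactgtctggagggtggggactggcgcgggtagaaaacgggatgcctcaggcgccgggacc
Amn, chr12:111270846-111271095, plus strand: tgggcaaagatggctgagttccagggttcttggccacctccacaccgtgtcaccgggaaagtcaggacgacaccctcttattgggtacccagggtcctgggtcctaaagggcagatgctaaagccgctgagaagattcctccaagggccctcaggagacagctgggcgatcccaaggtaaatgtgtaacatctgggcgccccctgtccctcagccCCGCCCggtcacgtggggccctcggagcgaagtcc
Dab2, outer start, chr15:6299539-6299788, plus strand: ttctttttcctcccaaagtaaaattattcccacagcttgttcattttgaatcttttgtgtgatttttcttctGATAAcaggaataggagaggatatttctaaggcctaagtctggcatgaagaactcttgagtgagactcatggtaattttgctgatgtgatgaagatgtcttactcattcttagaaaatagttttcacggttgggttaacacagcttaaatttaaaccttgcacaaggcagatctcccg
Dab2, inner start, chr15:6386498-6386747, plus strand: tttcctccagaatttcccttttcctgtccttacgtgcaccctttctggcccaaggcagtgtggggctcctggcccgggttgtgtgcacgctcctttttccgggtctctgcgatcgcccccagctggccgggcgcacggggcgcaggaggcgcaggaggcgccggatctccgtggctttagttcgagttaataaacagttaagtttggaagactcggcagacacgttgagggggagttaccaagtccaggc
The Lrp2 sequence held 2 GC boxes, beginning 143 and 88 bases before the start, and the Amn sequence held 1 GC box, on the other strand, beginning 35 bases before the start. The outer Dab2 start had 1 GATAA match beginning 178 bases before it, and the inner Dab2 start had no match. No 2 matches overlapped. Among 32851 promoter sequences of the same length, 32.7% held a GC box, 22.6% GATAA, 12.4% TATAAA, 0.384% the HNF4 letters and 0.00913% the HNF1 palindrome. G and C made up 66.4% of the Lrp2 sequence, 61.2% of the Amn sequence, 36.8% before the outer and 60.0% before the inner Dab2 start, against a median of 52.4% over all promoters. A match describes these letters only, and which Dab2 start the probe reports on is not known.

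Lrp2, the receptor itself, had its highest level in knockdown cells at day 10 and its lowest in control cells at day 10. The normalised intensity was 1910.45 in ESCs, 704 in control against 1299 in knockdown cells at day 4, and 447 in control against 2551 in knockdown cells at day 10. The intensities as deposited ran the same way, at 1780, 812, 1643, 264 and 2557. In control cells the level thus went down at each stage, while in knockdown cells it went up from day 4 to day 10 and ended above ESCs. Between neighbours in the order of levels, the gap exceeded the between-probe SD only from knockdown to control at day 4. Knockdown at day 10 and ESCs lay 0.42 apart (SD 0.78), ESCs and knockdown at day 4 0.56 apart (SD 0.58), and control at day 4 and control at day 10 0.65 apart (SD 0.71).

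Amn, whose product anchors cubilin, was highest in ESCs and was lower in knockdown than in control cells on both days. Its normalised intensity was 3065 in ESCs, 815 in control against 542 in knockdown cells at day 4, and 1904 in control against 526 in knockdown cells at day 10. As deposited, these arrays read 2729, 935, 707, 1309 and 427. Control cells regained part of the ESC level by day 10, whereas the knockdown arrays of day 4 and day 10 lay 0.04 apart on the log2 scale, within the between-probe SD of 0.66. ESCs and control at day 10 lay 0.69 apart, also within their SD of 0.76.

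Dab2, the adaptor, was higher at each later stage from ESCs through control cells, and in knockdown cells it was higher at day 10 than at day 4. Both lines had almost the same Dab2 level at day 10. Its normalised intensity was 424 in ESCs, 923 in control against 1271 in knockdown cells at day 4, and 8981 in control against 9429 in knockdown cells at day 10. As deposited, these arrays read 481, 1052, 1608, 6118 and 9121. In the order of levels, the neighbours that did not differ beyond the between-probe SD were the day 10 arrays, 0.07 apart with an SD of 0.26. The log2 range over the 5 arrays was 4.47 for Dab2, 2.54 for Amn and 2.51 for Lrp2, against a median range of 1.35 over 10587 genes past the filter on at least 1 array.

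**Figure D1:**
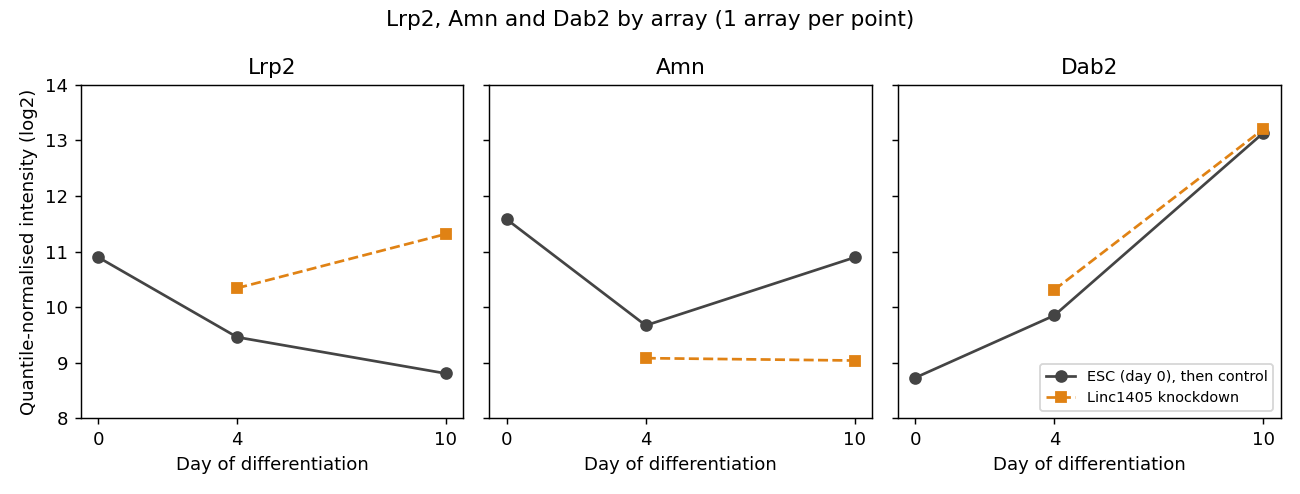
Log2 quantile-normalised intensity of Lrp2, Amn and Dab2 against the day of differentiation, with 1 array per point, circles and solid lines for ESCs and control cells, and squares and dashed lines for Linc1405 knockdown cells. The lines part at day 10 for Lrp2 (knockdown 11.32, control 8.81) and, in the other direction, for Amn (9.04 and 10.89), while Dab2 lies at 13.20 and 13.13.

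The knockdown comparison at day 10 placed the receptor and the anchor of its partner on opposite sides. Lrp2 was at 11.32 in knockdown and 8.81 in control cells, a log2 difference of 2.51, or 5.70-fold higher. Amn was at 9.04 in knockdown and 10.89 in control cells, a difference of -1.86, or 3.62-fold lower. Dab2 differed by 0.07, which was less than the between-probe SD of 0.26. All 3 genes passed the filter, and 1 was at least 2-fold higher and 1 at least 2-fold lower. Lrp2 passed only through the knockdown array and Amn only through the control array, so each was counted through the array where it was high. Their dimmer arrays lay below the filter, where probe error may be larger than the between-probe SD. Over all 9250 genes that passed, 2.41% were at least 2-fold higher and 3.52% at least 2-fold lower, or 223 and 326 genes. With values as deposited, where the median of all genes was 0.37, these counts were 899 higher and 124 lower, and the Lrp2 difference was 3.28. The knockdown day 10 array also held 1050 deposited values at or below 0, against 0 to 38 on the other 4 arrays, and the part of this in the result was not tested. Ordered by their difference, Lrp2 ranked 26 from the top and Amn 76 from the bottom of those genes, whose median difference was 0.03.

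At day 4 no member of the 3 was 2-fold apart between knockdown and control cells. The Lrp2 difference was 0.88, or 1.85-fold higher in knockdown cells, from 9.46 in control to 10.34. With values as deposited it was 1.02, past 2-fold, where the median of all genes was 0.20. Dab2 differed by 0.46, from 9.85 to 10.31, or 1.38-fold higher. The Amn difference was -0.59, from 9.67 to 9.08, and both Amn arrays lay below the filter. These 3 differences were larger than the between-probe SD of 0.19. At this day 0.652% of 9044 genes that passed the filter were at least 2-fold higher and 1.09% at least 2-fold lower. In that set Lrp2 ranked 76 from the top and Dab2 342 from the top. Both passed the filter only through the knockdown array.

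For Lrp2 and Amn the knockdown difference had the same sign on both days and was larger at day 10. From day 4 to day 10 it moved by 1.63 for Lrp2, by -1.27 for Amn and by -0.39 for Dab2, with a combined between-probe SD of 0.32 and a median of 0.01 over 10107 genes. With values as deposited the change was 2.26 for Lrp2 and -0.036 for Dab2, the latter within that SD. These changes could not be tested with 1 array per group.

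**Figure D2:**
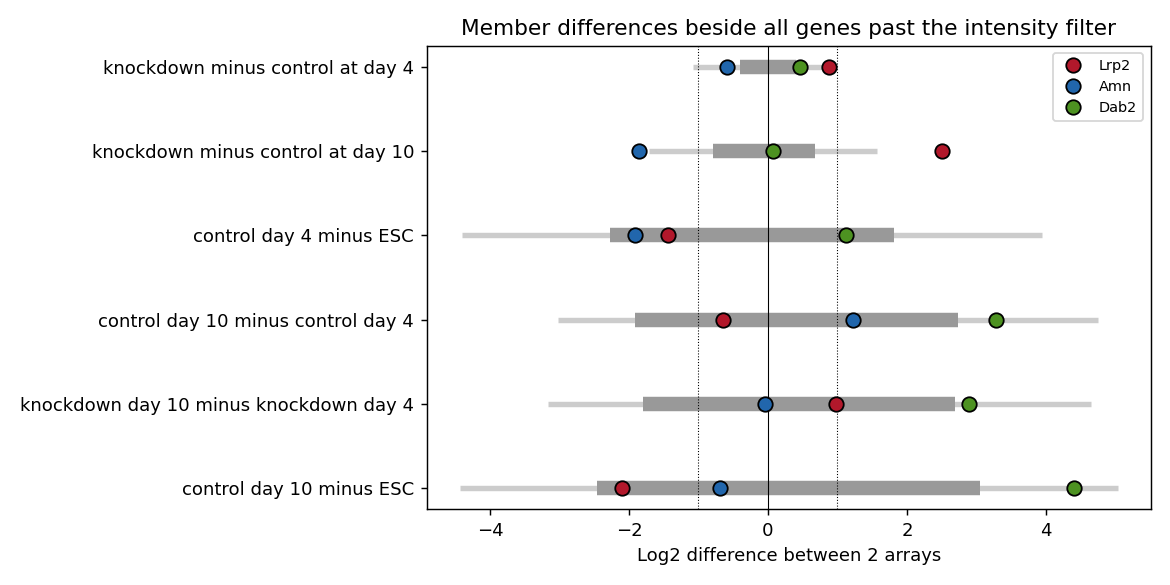
Log2 difference between 2 arrays for Lrp2, Amn and Dab2 (points) in each of 6 comparisons, over bars that run from the 5th to the 95th percentile (dark) and the 1st to the 99th percentile (light) of all genes past the intensity filter, with dotted lines at 2-fold. At day 10 Lrp2 (2.51) lies above and Amn (-1.86) below the light bar, and Dab2 (0.07) lies near 0.

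Entry into mesoderm, from ESCs to control cells at day 4, went with lower Lrp2 and Amn. Lrp2 differed by -1.44 and Amn by -1.91, each at least 2-fold lower, in a comparison in which 13.6% of 9682 genes that passed the filter were at least 2-fold lower and 12.7% higher. Dab2 differed by 1.12 in the other direction, but its brighter array, at 9.85, lay below the filter. From control day 4 to control day 10, Dab2 differed by 3.28, or 9.73-fold higher, and Amn by 1.22, or 2.34-fold higher, among 19.2% of 9834 genes at least 2-fold higher. Without normalization between arrays the Amn difference was 0.49 and no longer 2-fold. Lrp2 differed by -0.65, or -1.62 as deposited, with both arrays below the filter, where 19.8% of genes past it were at least 2-fold lower.

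The knockdown line's own course from day 4 to day 10 differed by 2.89 for Dab2, 0.97 for Lrp2 and -0.04 for Amn. The Amn arrays of this pair lay below the filter. Dab2 was thus at least 2-fold higher among 18.7% of 9791 genes, and the opposite share was 18.2%. Against ESCs, control cells at day 10 differed by 4.40 for Dab2, or 21.2-fold higher, by -2.09 for Lrp2 and by -0.69 for Amn, beside 23.3% of 10071 genes at least 2-fold higher and 22.8% lower. The comparisons between stages share arrays with each other and with the knockdown comparisons, so their values are not independent.

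Partners of megalin in uptake were 2-fold apart at day 10 about as often as genes in general. The list held cubilin, chaperone, adaptor, clathrin and recycling genes and the receptors Folr1 and Fcgrt, and 35 of its 39 genes were measured. At day 10, 29 passed the filter, of which 1 was at least 2-fold higher and 1 lower, beside 2.41% and 3.52% of all genes, and the median difference of all measured members was -0.01 against 0 over all genes. At day 4, 28 passed the filter, 0 were at least 2-fold higher and 1 lower, with a median of -0.05. Cubn, the gene of cubilin, lay below the filter on all arrays: its log2 level was 8.55 in ESCs, 6.68 in control against 6.71 in knockdown cells at day 4, and 8.41 in control against 7.06 in knockdown cells at day 10. The day 4 levels were close to the floor of 6.64, and ESCs and control cells at day 10 differed by less than the between-probe SD of 0.76, so no order of the Cubn levels was read.

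Lrpap1, the chaperone that keeps megalin free of ligand on its way to the surface, differed by -0.19 at day 4 and 0.37 at day 10. Gipc1, an adaptor that binds the megalin tail, differed by -0.10 and 0.11, and Clcn5, the endosomal chloride transporter of proximal tubule, by -0.03 and -0.24. The 2 genes of this list that were 2-fold apart at day 10 were Mapk8ip1, a JNK scaffold protein, at 11.72 in knockdown and 10.36 in control cells (1.36), and Ehd4, of endosomal recycling, at 13.56 and 14.67 (-1.11). At day 4 Dab1, the Dab2 relative of reelin signalling, differed by -1.19 on its brightest probe and by -0.58 and -0.83 on its other probes.

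Other receptors of the LDL receptor family and related scavenger receptors stayed closer together than Lrp2. Of 16 measured genes, with a median of -0.01, 12 passed the filter at day 10. Of these 12, 1 was at least 2-fold higher and 0 lower, beside 2.41% and 3.52% of all genes. That gene was Stab2, a hyaluronan scavenger receptor of endothelium, at 11.43 in knockdown and 10.42 in control cells (1.01). At day 4, 0 of 12 past the filter were 2-fold apart, and the median was -0.05. Lrp1, the broadly expressed large receptor of the family, differed by -0.01 at day 4 and 0.15 at day 10, and Vldlr, the very low density lipoprotein receptor, by 0.10 and -0.20. Lrp11 had the lowest value of the family at day 10, -0.96.

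Ligands of megalin and cubilin lay mostly on the lower side in knockdown cells at day 10. Of 28 measured genes, 20 passed the filter, 6 were at least 2-fold lower and 1 higher, and the median was -0.16. Over all genes that passed at this day, 3.52% were at least 2-fold lower and 2.41% higher. Apob, the lipoprotein scaffold, was at 7.65 in knockdown and 11.35 in control cells (-3.70), and Apom, another apolipoprotein, at 9.27 and 12.76 (-3.49). Ttr, the thyroxine carrier transthyretin, stood at 11.57 and 15.01 (-3.44), and Rbp4, the plasma retinol carrier, at 12.53 and 15.94 (-3.41), with -3.58 and -1.48 on its other probes. Against them, Mt2, a metallothionein, was at 11.70 and 10.69 (1.01). Of the lower genes, Apob, Apom and Ambp passed the filter only through the control array. Alb, the gene of albumin, differed little, at 12.24 in knockdown and 12.16 in control cells. At day 4, 1 of 14 ligand genes past the filter was at least 2-fold lower, Ttr with -1.08, and the median was -0.08.

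Genes of vitamin carriage and processing had a median of -0.06 at day 10. Of 11 members that passed the filter, 2 were at least 2-fold higher and 0 lower, beside 2.41% and 3.52% of all genes. They were Aldh1a2, which makes retinoic acid, at 10.34 in knockdown and 7.96 in control cells (2.38), and Vdr, the vitamin D receptor, at 10.46 and 9.37 (1.09), with 1.28 on its other probe. Both genes passed the filter only through the knockdown array, so this count was not read as a result about the list. Stra6, the receptor for retinol bound to Rbp4, lay between 6.64 and 7.03 on all 5 arrays, near the floor of 6.64. At day 4, 0 of 8 members past the filter were 2-fold apart.

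Signalling partners of Dab2, among them TGF-beta receptors, Smads and Wnt components, had 0 of 16 members past the filter 2-fold apart at day 10 and 0 of 15 at day 4, with medians of -0.02 and 0.03. Over the control course from day 4 to day 10, over which Dab2 was 9.73-fold higher, 4 of 16 were at least 2-fold higher and 1 lower, beside 19.2% and 19.8% of all genes, so the higher count is near that of genes in general. Tgfbr2, a TGF-beta receptor, differed by 3.48 and Egfr, the EGF receptor, by 2.44. Gata6, a GATA factor of endoderm and heart, differed by 2.04 and Itgb1, the integrin beta 1 chain, by 1.37. Axin1, of the Wnt pathway, differed by -1.13 on its brightest probe.

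Markers of cell types that can make these proteins were set beside the member differences, and the lists lay on different sides. Of 22 measured visceral endoderm markers other than Amn, 15 passed the filter at day 10, and 12 were at least 2-fold lower and 0 higher in knockdown cells, with a median of -1.70. Over all genes that passed, the shares were 3.52% lower and 2.41% higher. Apob, Apoc2, Soat2 and Spink1 passed only through the control array. Their knockdown levels were 7.65, 8.77, 9.56 and 8.63. The summed intensity of the list was 123822 in ESCs, 109093 in control against 55624 in knockdown cells at day 4, and 291972 in control against 88222 in knockdown cells at day 10. Spink1, a protease inhibitor, was at 8.63 in knockdown and 13.80 in control cells at day 10 (-5.17), and Afp, alpha-fetoprotein, at 13.22 and 15.70 (-2.47). Amn was on the same side as this list on both days and Lrp2 on the other. At the floor lay 2 of the 22 markers in knockdown cells at day 10, Apoa4 and S100g, and 0 in control cells. At day 4, 4 of 9 markers that passed the filter were at least 2-fold lower, beside 1.09% of all genes, with a median of -0.74. The list shares 4 genes with the ligands, Apoa1, Apob, Rbp4 and Ttr. Their part in the Amn result was not tested.

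Epicardium and mesothelium markers lay on the side of Lrp2. At day 10, 11 of 13 markers that passed the filter were at least 2-fold higher in knockdown cells and 0 lower, and the median of 17 measured genes was 1.93. Among all genes past the filter at this day, 2.41% were at least 2-fold higher and 3.52% lower. Aldh1a2, Sema3d, Gpm6a and Rspo1 passed only through the knockdown array. Their control levels were 7.96, 8.78, 8.81 and 8.79. The epicardium and mesothelium list includes Aldh1a2, described above with vitamin processing. Their summed intensity was 13761 in ESCs, 21075 in control against 19746 in knockdown cells at day 4, and 72808 in control against 206832 in knockdown cells at day 10. Wt1, a transcription factor of epicardium and kidney, was at 14.29 in knockdown and 11.68 in control cells at day 10 (2.61), and Upk3b, a mesothelial membrane protein, at 15.83 and 13.44 (2.39). Sema3d differed by 2.72 on its brightest probe and 0.46 on the other. Krt8, a keratin of simple epithelia, was at the floor on all 5 arrays. At day 4, 0 of 4 markers past the filter were 2-fold apart and the list median was 0. The other measured markers lay below the filter at that day, and Lrp2 differed by 0.88, less than 2-fold. Of the trophoblast markers, 3 of 7 that passed the filter were at least 2-fold higher in knockdown cells at day 10 and 0 lower, with a median of 0 over 10 measured genes. Tfap2c stood at 10.26 in knockdown and 8.06 in control cells, Krt7 at 12.78 and 10.69, and Ascl2 at 10.69 and 9.37. Tfap2c and Ascl2 passed only through the knockdown array. Against them, Cdx2 differed by -0.56, Hand1 by -0.64, Gata3 by -0.11 and Plet1, below the filter, by -1.44. Eomes differed by 0.26, and Elf5 and Syna were at the floor. Their summed intensity was 16618 in control and 19828 in knockdown cells at that day. Heart muscle markers lay on the other side at day 10: 10 of 13 were at least 2-fold lower in knockdown cells and 1 higher, and the summed intensity was 668038 in control and 335820 in knockdown cells. The part of these markers in the Lrp2 result was not tested.

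Kidney tubule and nephric duct markers, of an epithelium in which megalin is abundant, were dim: 2 of 16 measured genes passed the filter in the day 10 knockdown comparison. Their summed intensity was 27324 in ESCs, 13633 and 10085 in control and knockdown cells at day 4, and 7412 and 9175 at day 10. Single genes weighed heavily in these sums, so they were not read as a course of the tubule. Nphs1 was at 14.04 in ESCs and at the floor on both day 4 arrays. Lhx1, also on the primitive streak list, was at 12.94 in control cells at day 4. Slc34a1, the phosphate transporter of proximal tubule, lay between 6.81 and 7.77 on all arrays, and Umod was at the floor in knockdown cells at day 10. Osr1, a factor of lateral and intermediate mesoderm, was at 11.13 in knockdown and 9.21 in control cells at day 10 (1.92). Neural epithelium markers had 0 of 2 members past the filter 2-fold apart at day 10.

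Macrophages can make Dab2, and part of their marker list was brighter at day 10 than at day 4. Of 12 measured markers 7 were at least 2-fold higher in control day 10 than in control day 4 cells, beside 19.2% of all genes past the filter. Cd163 and Fcgr1 were at the floor on all 5 arrays, and Ptprc, Adgre1 and Aif1 stayed below the filter. Cd68 was brighter in ESCs, at 13.33, than in control cells at day 10, at 12.16. The summed intensity of the list was 20652 in ESCs, 3567 and 3259 in control and knockdown cells at day 4, and 39304 and 16876 at day 10. In knockdown cells at day 10, 5 of 7 macrophage markers that passed the filter were at least 2-fold lower, beside 3.52% of all genes. Among them was C1qb, a complement chain, at 11.44 against 13.16 (-1.72), whereas Dab2 differed by 0.07. Trem2, also among the lower markers, passed only through the control array, at 9.60 against 10.60. Fibroblast and matrix markers had summed intensities of 40556 in ESCs and of 17798 and 19387 in control and knockdown cells at day 4. The ESC array thus carried more of this signal than the day 4 arrays, from a source that was not tested. At day 10 the sums were 284648 and 288323, with 0 of 8 past the filter 2-fold apart between the lines. Parietal endoderm markers are of another lineage that makes Dab2. From control day 4 to control day 10, 9 of 13 that passed the filter were at least 2-fold higher and 2 lower. The higher genes were Lama1, Lamb1, Lamc1, Col4a1, Col4a2, Nid1, Sparc, Vim and Plat, and the lower were Snai1 and Fst. Thbd, at 9.53 in control cells at day 10, and Stra6, at 7.02, lay below the filter. The count was therefore not read as a sign of that lineage. Over all genes past the filter the shares were 19.2% and 19.8%. Between the lines at day 10, 0 of 12 parietal endoderm markers were 2-fold apart. The part of these markers in the Dab2 course was not tested.

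**Figure D3:**
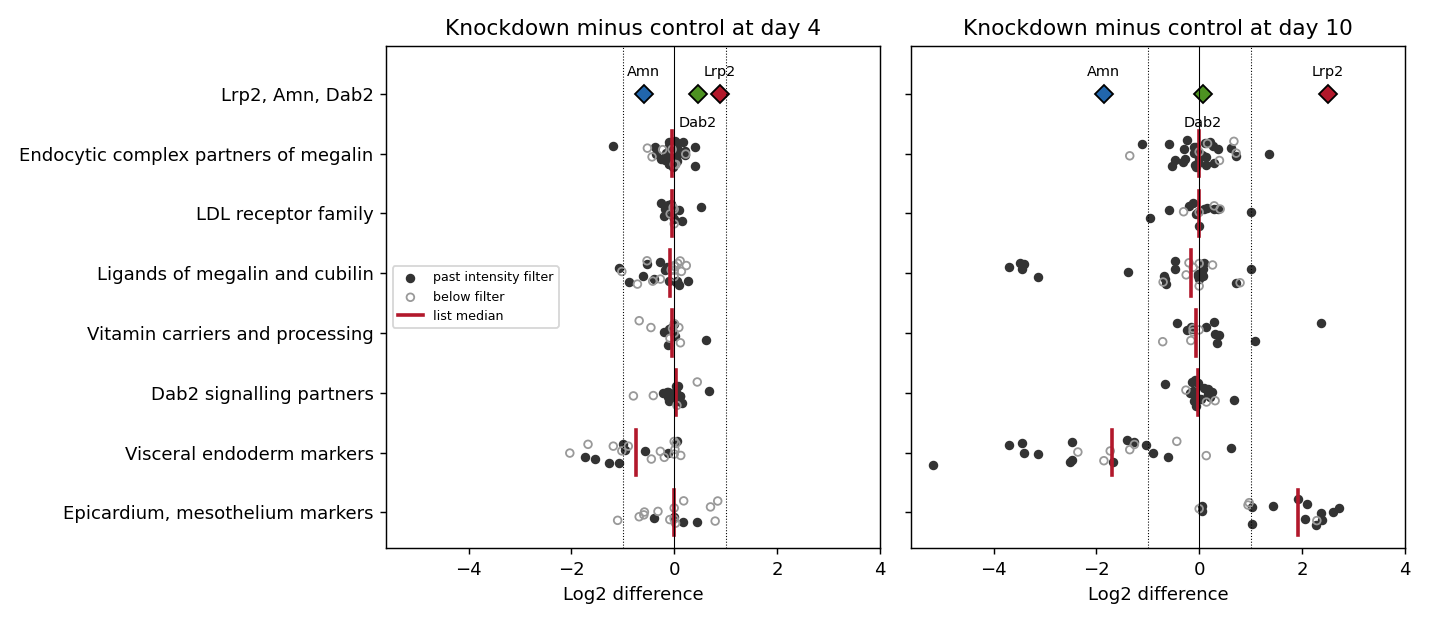
Log2 difference of knockdown minus control for Lrp2, Amn and Dab2 (diamonds) and for each measured gene of 7 lists at day 4 (left) and day 10 (right), with filled points for genes past the intensity filter, open points for genes below it, red lines for list medians and dotted lines at 2-fold. At day 10 the visceral endoderm markers (median -1.70) lie on the side of Amn and the epicardium and mesothelium markers (median 1.93) on the side of Lrp2, and the uptake partners (median -0.01) lie around 0.

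The profile over the 5 arrays was compared with that of 10033 other genes by the root mean square distance of log2 levels, each gene centred on its own mean, and this is a description over 5 arrays with 1 array per group. The nearest genes to Lrp2 were Actn3 (0.36), an alpha-actinin of fast muscle, Dact2 (0.39), Sfrp2 (0.39), a secreted Wnt regulator, Nudt16l1 (0.39), Lhx2 (0.40), a LIM homeobox factor, and Hoxc4 (0.40). Each of them had its lowest or second lowest level in control cells at day 10 and was higher in knockdown cells at that day, Sfrp2 for example at 13.71 against 11.36. The nearest genes of each member were chosen for likeness on these same arrays, so such a shared course follows from the choice. Nearest to Amn were Cdkn1a (0.15), the cell cycle inhibitor p21, Shisal2a (0.31), Slc47a1 (0.32), an organic cation exporter, Ccn2 (0.33), a matrix protein, Anxa8 (0.33) and Acsl1 (0.33), a fatty acid ligase. Cdkn1a was at 15.57 in ESCs, 13.95 and 13.11 in control and knockdown cells at day 4, and 14.73 and 13.21 at day 10.

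Dab2 had closer neighbours. They were Rhobtb1 (0.12), Col4a5 (0.18), a basement membrane collagen chain, Ghr (0.18), the growth hormone receptor, Mfap2 (0.18), a microfibril protein, Tmem176b (0.20) and Gpr85 (0.25). Like Dab2, and through the way they were chosen, all were lowest in ESCs and high on both day 10 arrays. Between the members themselves the distances were 1.52 for Lrp2 and Amn, 2.16 for Lrp2 and Dab2, and 2.33 for Amn and Dab2, so no member was near another.

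**Figure D4:**
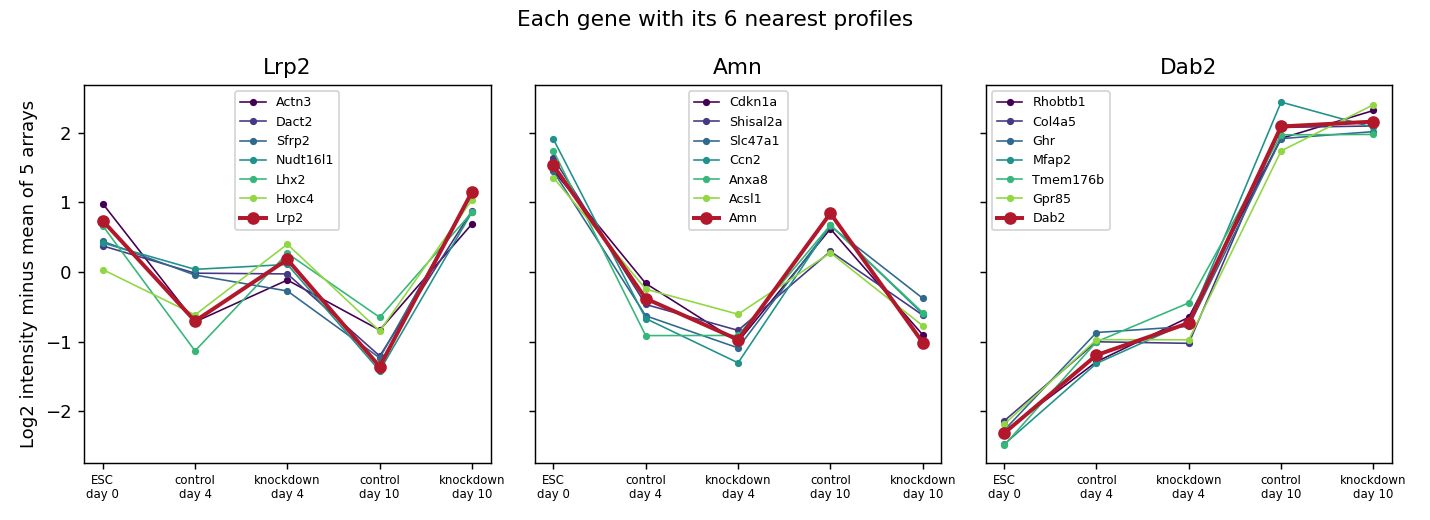
Log2 intensity minus the mean of 5 arrays for Lrp2, Amn and Dab2 (thick red lines) and the 6 genes nearest to each by root mean square distance (thin lines), in the order ESCs, control and knockdown at day 4, control and knockdown at day 10. Distances run from 0.36 to 0.40 for Lrp2, 0.15 to 0.33 for Amn and 0.12 to 0.25 for Dab2.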

How the data were processed

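Total RNA of 5 cultures was measured on 5 single-colour arrays, 1 per group, and groups were taken from the labels. The authors deposited 1 linear intensity per probe and array, obtained with Agilent Feature Extraction 10.7.1.1, per the submitters' processing notes. The sources used here do not state how these values were normalized. The knockdown day 10 array had 1050 values at or below 0 and the other arrays 0 to 38, and array medians ran from 344 to 745, so the arrays had not been brought to 1 scale. Detection marks were not used here, so a low level is stated as a level and not as absence.

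Intensities were quantile normalised over the 5 arrays before taking logs, values under 100 (a log2 level of 6.64) were raised to it as a floor, and log2 was taken. On each array 19.0 to 19.1% of probes lay at the floor. Current symbols came from a RefSeq table of GRCm38.p6: 18213 probes had a current symbol, 2126 were matched through a synonym and 38 kept the older symbol, and 6046 probes were unnamed here. The brightest probe stood for each gene, 2278 of which had more than 1. Log2 differences between pairs of arrays were counted from 2-fold, for genes past the filter described in the results. The between-probe SD is the SD, over genes with exactly 2 probes that each passed the filter, of how far the log2 differences of the 2 probes differed, scaled by the square root of 2 to a single probe. Dim members below the filter may have a larger probe error. Gene lists are described by counts and by the median of all measured members, beside all genes. Analyses used Python 3.11.15, pandas 2.3.3, numpy 2.4.6 and statsmodels 0.14.6, and the steps were tested on simulated data.

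The members and the lists were chosen with earlier results of these data known. Named genes were the members, the 6 nearest profiles of each, fixed partners such as Cubn and Lrpap1, and up to 4 genes of a list with the largest difference on the side of its median and 2 against it, besides single genes that account for a small count, control genes of the stages, and Alb, which was chosen after its values were seen. Alternatives were the values as deposited, scaling to a common 75th percentile, loess centring of each pair (span 0.3, 3 iterations), floors of 50 and 200, the mean of all probes, other filters and a 4-fold threshold.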

Additional observations from a re-analysis of the deposited data

How the results depend on the processing

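No paired analysis was possible because each group had 1 array. The 21 differences of Lrp2, Amn and Dab2 moved by less than the between-probe SD with floors of 50 and 200, loess centring and the mean of all probes. Each member has a single probe, so the mean of all probes could not change its level. The lowest member intensity was 424, above both floors, so the floors could not change a member level either. Scaling to a common 75th percentile moved 1 of them beyond that SD, Amn at day 10, to -2.14. Values as deposited shift the median of all genes by 0.20 and 0.37 for knockdown against control at day 4 and day 10, by 0.17 for control day 4 against ESCs, by -0.72 and -0.58 for the control and knockdown courses, and by -0.51 for control day 10 against ESCs. In that setting knockdown against control at day 10 gave 3.28 for Lrp2 and 0.58 for Dab2, and the change from day 4 to day 10 was 2.26 for Lrp2 and -0.036 for Dab2. Control day 10 minus control day 4 gave -1.62 for Lrp2, 0.49 for Amn and 2.54 for Dab2, and the knockdown course gave -0.73 for Amn. The cause was not tested. Of 12 member differences of at least 2-fold, all kept their sign in the 6 alternatives, and 70 of 72 values stayed at least 2-fold. These counts include the floors and the mean of all probes, which could not change the member differences. The exceptions were Amn in the control course as deposited and Dab2 against ESCs at day 4 scaled to the 75th percentile (0.76). Lrp2 in the knockdown course reached 2-fold with that scaling (1.02) and with loess (1.17), and Amn in control day 10 against ESCs as deposited (-1.06).

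Higher and lower counts of genes at least 2-fold apart were 59 and 99 at day 4 and 223 and 326 at day 10, and with values as deposited 103 and 79, and 899 and 124. Control day 4 against ESCs gave 1234 and 1315, as deposited 2076 and 1006, and control day 10 against ESCs 2342 and 2300, as deposited 1458 and 3403. The control course gave 1886 and 1945, as deposited 951 and 4567, and the knockdown course 1832 and 1782, as deposited 1248 and 3512. For the knockdown comparisons, no filter gave 128 and 239 at day 4 and 355 and 480 at day 10, a filter at the 75th percentile 15 and 23, and 84 and 139, and a 4-fold threshold 9 and 15, and 56 and 58. A filter at the median of all probes (a log2 level of 9.16), chosen after seeing the data, gave 86 and 157 at day 4 and 272 and 394 at day 10, and under it Amn at day 4 and Dab2 against ESCs passed. By Pearson r in place of distance, 1 of the 6 nearest genes of Lrp2, 1 of Amn and 0 of Dab2 stayed among the nearest 6, so those names depend on the measure.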

Other observations

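Folr1, a folate receptor counted above among the partners in uptake, was at a log2 level of 12.12 in ESCs, 8.05 (control) and 7.62 (knockdown) at day 4, and 10.74 and 10.16 at day 10, so that, like Amn, it was highest in ESCs and lower at day 4 than at day 10 in control cells. Fcgrt, the neonatal Fc receptor that recycles albumin and antibodies and is in the same list, was at 12.14, 9.17, 8.65, 14.89 and 14.93 in the same order. Lrp8, a reelin receptor, was highest at day 4, at 12.58 (control) and 12.40 (knockdown), against 10.84 in ESCs and 9.58 and 9.27 at day 10. Stab1, a scavenger receptor of endothelium and macrophages, stood at 13.11 (control) and 13.10 (knockdown) on the day 10 arrays, and between 10.59 and 10.85 on the other arrays. Fcgrt and Stab1 were chosen here after their values were seen.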
